A study of Mus musculus with 6 samples.

Results

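The binding of C/EBPα, IRF8 and JUNB was examined at 8 genes of the Fc receptor system of the mouse, Fcgr1, Fcgr2b, Fcgr3, Fcgr4, Fcer1g, Fcgrt, Tyrobp and Syk. A peak belonged to a gene when the deposited annotation named that gene as the nearest one, and 131 of the 134964 peaks in the 6 peak lists did. The lists come from ChIP-seq, which sequences the DNA that an antibody against a DNA-bound protein pulls down, in bone marrow-derived macrophages (BMDMs). These are primary cells grown here for 6 days from marrow of wild-type C57BL/6 mice aged 8 to 12 weeks, in medium conditioned by L929 cells. The titles of all samples say that the cells were differentiated in the presence of MCSF. Control cells received no IL-4, and the other cells received 20 ng/ml IL-4 for 1 h. All cells were fixed with DSG and then formaldehyde. With 1 sample for each antibody and condition, no value below has a replicate, no test of the effect of IL-4 was possible, and a difference between 2 lists of a factor cannot be told apart from a difference between 2 libraries. The design asks how early IL-4 signaling, which acts through STAT6, changes the occupancy of factors that mark macrophage enhancers.

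Fcγ receptors bind the constant part of IgG and let macrophages take up antibody-coated particles. Fcgr1, Fcgr3 and Fcgr4 encode activating receptors, Fcgr2b encodes the inhibitory receptor, and the balance between them sets the threshold of the response. The activating receptors depend on the Fcer1g-encoded common γ chain, whose phosphorylated tyrosines recruit the kinase Syk. Tyrobp encodes DAP12, an adaptor chain of the same kind that pairs with other receptors and also recruits Syk. Fcgrt encodes FcRn, which binds IgG inside cells and returns it to the surface. C/EBPα and IRF8 are factors of the myeloid lineage, and JUNB is a subunit of AP-1.

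The sequences under the peaks on which the comparisons turn are given first, each 200 bases centered on the highest peak of its region and read from the plus strand of mm10. Capitals mark matches, on either strand, to the AP-1 sites TGACTCA and TGAGTCA, the C/EBP site TTGCNNAA, an IRF site (GGAA or GAAA followed after any 2 bases by GAAA) and a STAT site (TTC followed after any 3 or 4 bases by GAA). Distances are from the transcription start site (TSS) in the deposited annotation, with a minus sign for upstream. Syk has 2 such starts, 13445 bp apart, and each Syk peak is measured from the nearer one. The first 2 sequences lie upstream of Fcgr1. That at chr3:96300807-96301006 is in the only region at the 8 genes with a peak in all 6 lists. At chr3:96302779-96302978 JUNB had a peak in control cells only. The next lies upstream of Fcgr4 at chr1:171006497-171006696, under the highest IRF8 score of the 8 genes. The sequence upstream of Fcgr2b at chr1:170986998-170987197 lies under the C/EBPα peak whose score rose most. The introns of Fcgr2b at chr1:170967632-170967831 and of Fcgr3 at chr1:171057388-171057587 are shown because they share sequence. The last, in an intron of Syk at chr13:52615139-52615338, lies where the scores of C/EBPα and IRF8 moved apart.
Fcgr1 -6.9 kb: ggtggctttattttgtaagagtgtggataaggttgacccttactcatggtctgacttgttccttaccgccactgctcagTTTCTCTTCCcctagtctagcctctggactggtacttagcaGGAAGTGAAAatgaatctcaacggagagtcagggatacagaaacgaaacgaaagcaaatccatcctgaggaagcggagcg
Fcgr1 -8.9 kb: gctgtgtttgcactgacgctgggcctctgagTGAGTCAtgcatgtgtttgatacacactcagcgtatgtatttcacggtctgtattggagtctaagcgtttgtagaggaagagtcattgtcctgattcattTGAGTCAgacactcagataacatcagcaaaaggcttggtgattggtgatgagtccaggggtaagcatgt
Fcgr4 -12.3 kb: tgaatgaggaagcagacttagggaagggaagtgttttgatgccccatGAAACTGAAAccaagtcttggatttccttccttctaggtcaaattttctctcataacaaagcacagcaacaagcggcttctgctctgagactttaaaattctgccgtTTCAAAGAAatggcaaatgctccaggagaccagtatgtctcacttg
Fcgr2b -11.0 kb: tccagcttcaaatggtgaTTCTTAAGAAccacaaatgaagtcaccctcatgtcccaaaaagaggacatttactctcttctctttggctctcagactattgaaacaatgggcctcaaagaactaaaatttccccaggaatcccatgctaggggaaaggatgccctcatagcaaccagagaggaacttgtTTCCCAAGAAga
Fcgr2b +8.3 kb: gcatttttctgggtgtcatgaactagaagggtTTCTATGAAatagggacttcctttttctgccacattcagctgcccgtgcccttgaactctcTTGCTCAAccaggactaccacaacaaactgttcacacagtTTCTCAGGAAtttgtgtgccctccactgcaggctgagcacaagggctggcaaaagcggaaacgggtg
Fcgr3 +1.9 kb: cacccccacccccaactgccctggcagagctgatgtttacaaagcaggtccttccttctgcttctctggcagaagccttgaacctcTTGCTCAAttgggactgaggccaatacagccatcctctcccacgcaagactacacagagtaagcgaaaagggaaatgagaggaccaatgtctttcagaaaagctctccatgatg
Syk +18.4 kb: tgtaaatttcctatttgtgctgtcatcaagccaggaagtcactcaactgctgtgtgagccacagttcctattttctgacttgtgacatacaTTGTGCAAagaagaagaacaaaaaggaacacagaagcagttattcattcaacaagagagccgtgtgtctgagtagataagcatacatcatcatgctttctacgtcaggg

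The Fcgr1 element at -6.9 kb held 2 IRF sites and the Fcgr1 element at -8.9 kb held 2 AP-1 sites. The Fcgr4 element held 1 IRF and 1 STAT site. The Fcgr2b element at -11.0 kb held 2 STAT sites and no C/EBP site. The intronic sequences of Fcgr2b and Fcgr3 each held TTGCTCAA, a C/EBP site, and the 2 merged peak regions aligned over 155 bases at 78.7% identity, the only alignment between regions of different Fcγ receptor genes that blastn found at an E-value of 1e-05 and 50 bases or more. The same 10 bases, GGAAGTGAAA, formed an IRF site at the Fcgr1 element at -6.9 kb and at the Fcgr2b promoter. A match is a description of the letters and does not show which protein was bound.

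Across the 8 genes, C/EBPα had 32 peaks in control cells and 29 after IL-4, IRF8 had 30 and 33, and JUNB had 4 and 3. Fcgr2b carried 32 of the 131 peaks, Fcgr4 27, Syk 24, Fcgr1 16, Fcgr3 15, Tyrobp 10, Fcer1g 4 and Fcgrt 3. C/EBPα had a peak at all 8 genes in control cells and at 7 after IL-4, and IRF8 had one at all 8 in either condition. JUNB had no peak at Fcer1g, Fcgrt, Tyrobp or Syk in either list. The whole JUNB lists were short, with 3940 peaks in control and 2325 after IL-4, against 24486 and 24612 for C/EBPα and 37525 and 42076 for IRF8. Sequencing depth is unknown, and labels name 2 library kits without saying which sample had which.

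**Figure D1:**
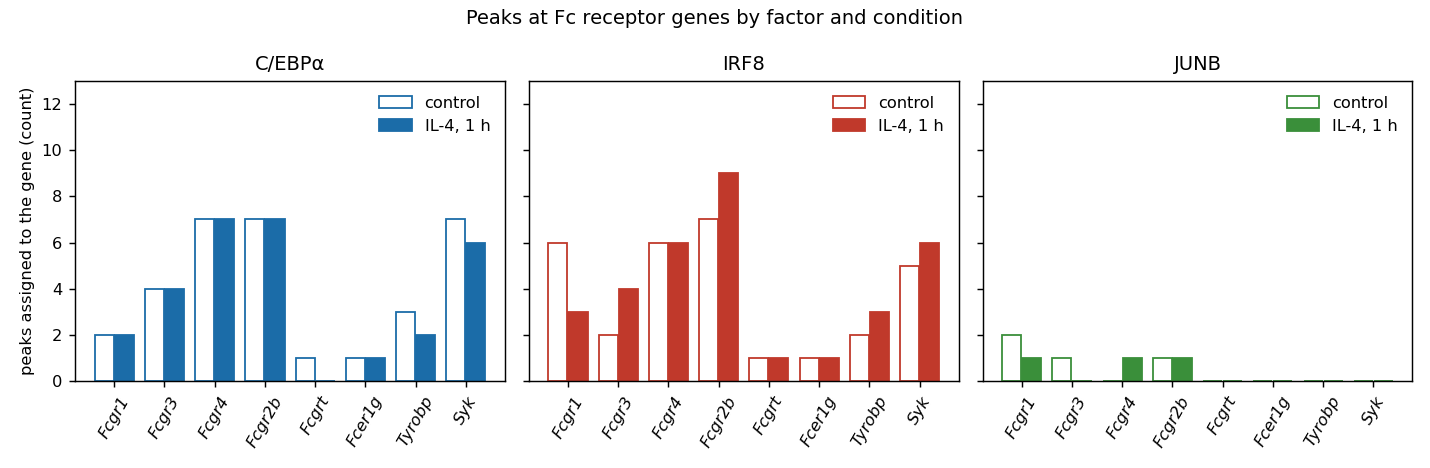
Number of peaks assigned to each gene in the C/EBPα, IRF8 and JUNB lists. Open bars are the control list and filled bars the list after 1 h of IL-4, with 1 sample each. Fcgr2b, Fcgr4 and Syk carried the most C/EBPα peaks, and JUNB had at most 2 peaks at any gene.

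Most peaks at these genes were present with and without IL-4. An IL-4 peak was found at 84.4% of the control peaks of C/EBPα (27 of 32, Wilson 95% interval 68.2% to 93.1%), and at 83.3% of those of IRF8 (25 of 30, 66.4% to 92.7%). The shares over the whole lists were 78.6% for either factor and lie inside these intervals, which cover counting only. For JUNB 1 of 4 control peaks was kept (25%, 4.56% to 69.9%), with 35.8% in the whole list. The JUNB control list is the longer one, and when it was shortened by score to the length of the IL-4 list, 1 control peak was left at these genes and 0 were control-only. The JUNB peaks called control-only below, at Fcgr1, Fcgr2b and Fcgr3, therefore depend on the list lengths. C/EBPα had 5 control-only (15.6%) and 3 IL-4-only (10.3%) peaks at the 8 genes, that is, peaks with no overlapping peak in the other list of the factor. Over all C/EBPα peaks, 21.4% of the control list were control-only and 22% of the IL-4 list were IL-4-only. IRF8 had 5 control-only (16.7%) and 9 IL-4-only (27.3%) peaks, with background shares of 21.4% and 30.4%. JUNB had 3 of 4 and 2 of 3, with background shares of 64.2% and 39.2%. For C/EBPα and IRF8 the shares at the Fc receptor genes were thus no larger than in the lists as a whole.

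Peaks of a single condition were weak. Peak scores are given as deposited, without a stated unit, and a higher score marks a stronger peak. The median score of the 104 shared peaks was 20.2, and that of the 27 peaks found in 1 condition was 5.39. Only 3 of the latter reached a score of 10, and each was found after IL-4. They were an IRF8 peak downstream of Fcgr3 at +12.5 kb (score 22.72), an IRF8 peak at Fcgr2b -11.0 kb (12.19) and a C/EBPα peak in the last intron of Fcgr3 at +5.9 kb (10.4). These medians and this count were not taken over the whole lists, so neither is shown to be particular to these genes.

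At shared peaks, scores were compared between conditions pair by pair, and a pair was called higher when the IL-4 score was at least 15% above the control score, and lower when the control score was at least 15% above the IL-4 score. C/EBPα had 25 pairs, of which 8 were higher after IL-4, 10 lower and 7 in between, with a median of 0.966-fold. Over all C/EBPα pairs 36.4% were higher and 36.8% lower. IRF8 had 24 pairs, of which 12 were higher, 8 lower and 4 in between, with a median of 1.12-fold. Over all IRF8 pairs 42.6% were higher and 32.9% lower. JUNB had 1 pair, which was lower, in a list where 19.6% of pairs were higher and 66% lower. The median log2 ratio over the 8 genes was -0.05 for C/EBPα and 0.17 for IRF8, beside medians of -0.0038 and 0.08 over all pairs and standard deviations among all pairs of 0.71 and 0.79. Within these near-even totals, the pairs of some genes lay mostly on 1 side, as the plot of paired scores shows. No gene had more than 7 pairs for a factor, and a difference between genes was not tested against that spread.

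**Figure D2:**
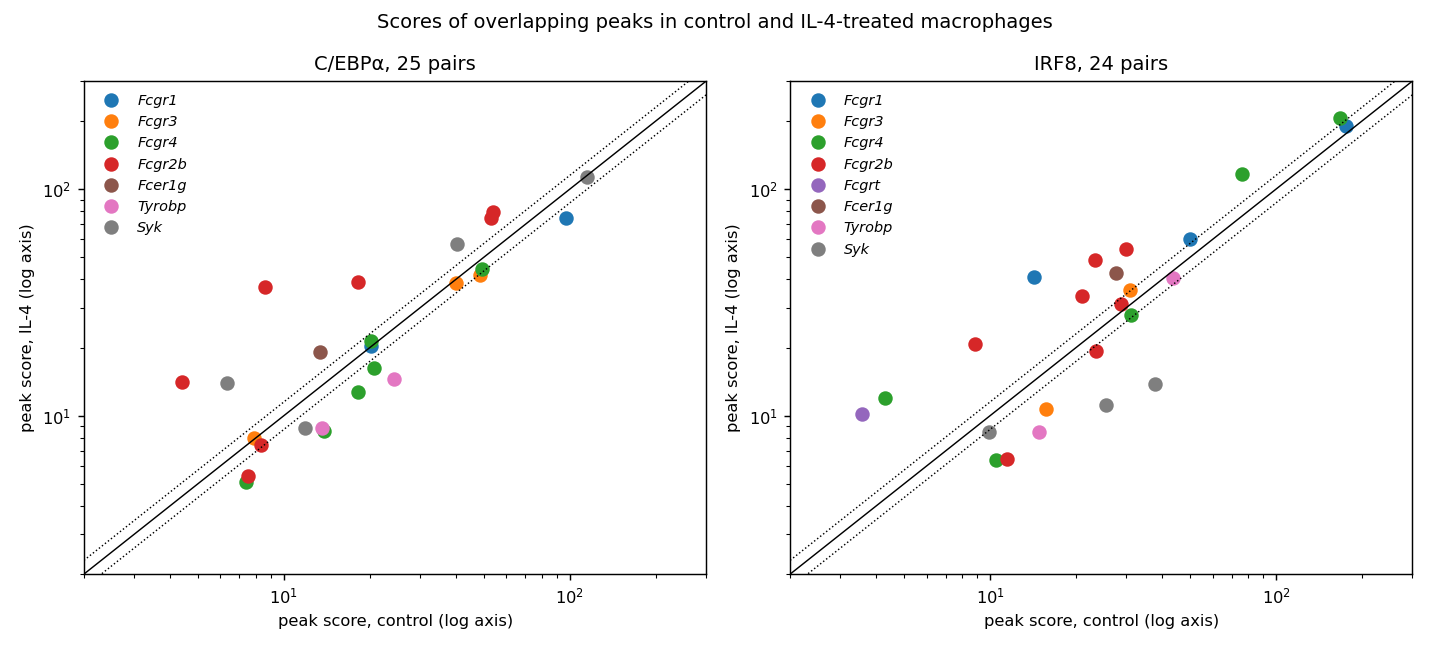
Peak score in control cells (x axis) against the score of the overlapping peak after IL-4 (y axis), both on log axes, for 25 C/EBPα and 24 IRF8 pairs colored by gene. The solid line marks equal scores and the dotted lines a difference of 15%. Fcgr2b pairs lie mostly above the line for both factors, and the Syk pairs of IRF8 lie below it.

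Among the activating receptors, Fcgr1 (chr3:96282909-96293969, minus strand), which encodes the high-affinity receptor FcγRI, had its strongest peaks upstream. The element at -6.9 kb scored 97.18 for C/EBPα in control and 74.66 after IL-4. IRF8 scored 175.59 and 190.03 there, at the percentiles 99.1 and 99.2 of its lists. JUNB scored 19.3 in control and 4.76 after IL-4. At this element C/EBPα was thus 1.3-fold lower and JUNB 4.05-fold lower after IL-4, whereas IRF8 moved 1.08-fold. The JUNB list fell as a whole, with a median log2 ratio of -0.54 over all 1406 JUNB pairs. The log2 ratio of JUNB at this element was -2.02, and -1.68 with scores divided by the list median. Of the 60856 merged regions of the series, 993 (1.63%) had a peak in all 6 lists, and this was the 1 region of the 51 at the Fc receptor genes that did.

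The promoter of Fcgr1 behaved differently for the 2 factors that bound it. IRF8 scored 14.21 in control and 40.88 after IL-4, a 2.88-fold rise, while C/EBPα scored 20.16 and 20.25. The 200 bases upstream of the RefSeq start (GRCm38.p6, chr3:96293970-96294169, shown 5′ to 3′ on the minus strand because both factors had a peak over it) held 1 STAT site.
Fcgr1 promoter: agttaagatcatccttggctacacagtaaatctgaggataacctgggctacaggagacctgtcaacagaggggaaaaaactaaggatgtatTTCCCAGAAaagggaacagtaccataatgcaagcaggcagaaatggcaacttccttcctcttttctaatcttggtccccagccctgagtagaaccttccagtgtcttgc
A STAT site of this form occurred in 9.7% of 32851 promoter sequences of the same length. A further IRF8 peak in the last exon, exon 6 of 6, scored 50.05 and 60.18. Fcgr1 also had 4 control-only peaks and no IL-4-only peak. They were IRF8 peaks in intron 2 (7.11), at -8.9 kb (5.03) and at -40.0 kb (4.02), and a JUNB peak at -8.9 kb (5.9). The last overlapped the IRF8 peak, so this element, with its 2 AP-1 sites, had peaks of both factors in control cells and of neither after IL-4. In the paper, ChIP-qPCR at selected enhancers measured the binding of p65 after LPS. The paper reports that IL-4 partly attenuated this binding at its Fcgr1 enhancer. It chose such enhancers by overlapping STAT6 and p65 peaks, which were not examined here. The primer positions below therefore do not show which element is that enhancer. The primers of the study for enhancer RNA upstream of Fcgr1 lie 8122 bp from the TSS and overlap none of the merged regions. The ChIP-qPCR primers that the study designed upstream of Fcgr1 (forward acatcagcaaaaggcttggt, reverse ggctactctgctaacctgctaca) span chr3:96302929-96302998, 8994 bp upstream of the TSS, and their product overlaps this weaker element and not the one at -6.9 kb.

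**Figure D3:**
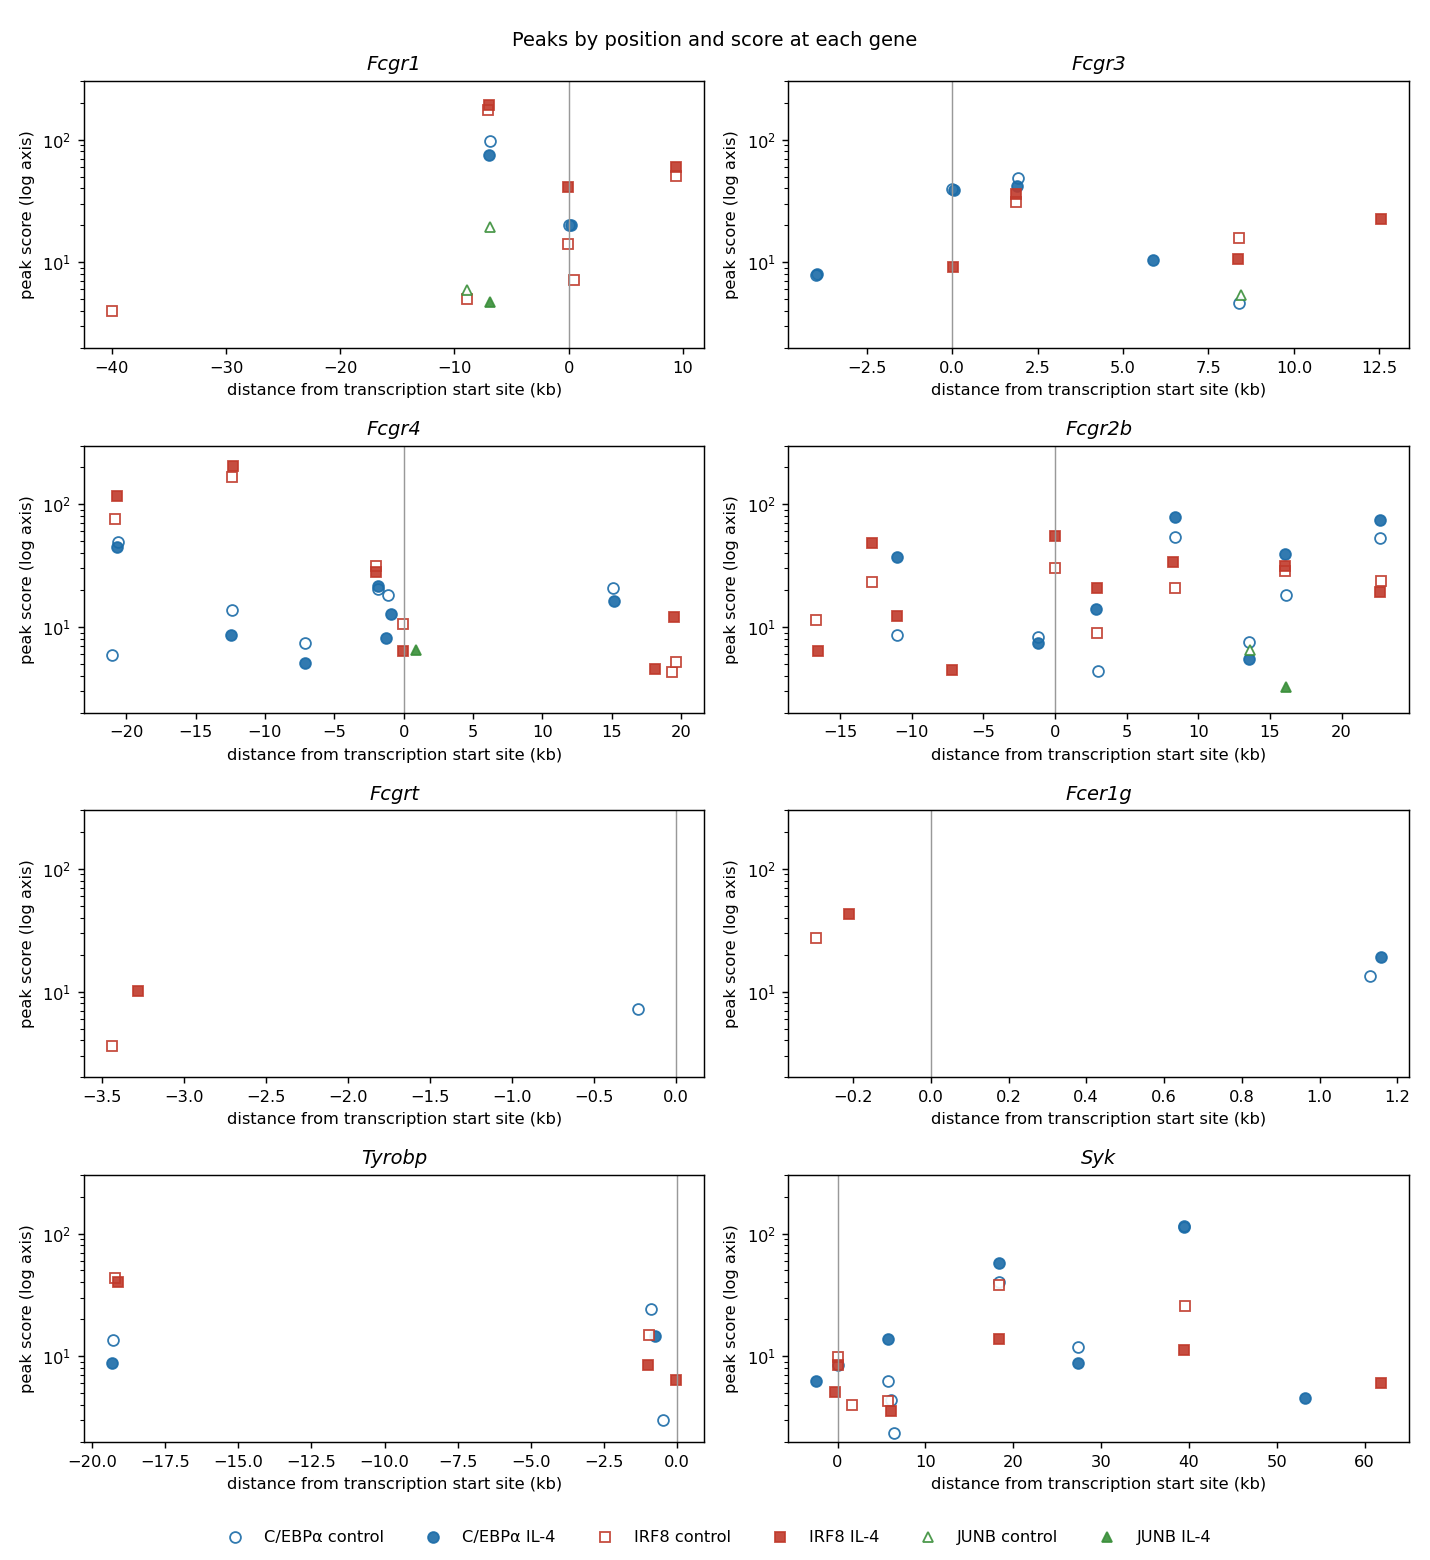
Peaks at each gene by distance from the TSS (x axis, kb, minus for upstream; for Syk the nearer of 2 starts) and peak score (y axis, log axis). Circles are C/EBPα, squares IRF8 and triangles JUNB, open for control and filled for IL-4. The highest scores lie away from the start, at Fcgr1 -6.9 kb, Fcgr4 -12.3 kb and -20.7 kb, and Syk +39.4 kb.

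Fcgr3 encodes FcγRIII, a low-affinity activating receptor, and lies on chromosome 1 between Fcgr4 and Fcer1g (GENCODE span chr1:171051174-171064935, minus strand; the deposited distances point to the RefSeq start inside it, as at Fcgr2b). C/EBPα scored 39.89 in control and 38.55 after IL-4 at its promoter, and 48.59 and 41.7 in the intron at +1.9 kb. IRF8 scored 30.87 and 35.79 at +1.9 kb, and at the promoter it had only an IL-4 peak of 9.11. At the 3′ end of the gene, +8.4 kb, IRF8 fell from 15.65 to 10.72, and C/EBPα (4.62) and JUNB (5.39) had control-only peaks. Over the 3 C/EBPα pairs the fold ranged from 0.858 to 1.02, the narrowest range among the 4 Fcγ receptor genes. The 200 bases upstream of its start (RefSeq, GRCm38.p6, chr1:171059404-171059603, 5′ to 3′ on the minus strand, under the C/EBPα promoter peak) held 1 C/EBP site, a form found in 7.47% of all promoter sequences of this length.
Fcgr3 promoter: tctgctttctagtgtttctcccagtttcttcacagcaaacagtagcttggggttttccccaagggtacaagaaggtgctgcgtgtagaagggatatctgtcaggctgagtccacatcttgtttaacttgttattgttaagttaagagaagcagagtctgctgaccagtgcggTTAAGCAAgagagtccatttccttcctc

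Fcgr4 (chr1:171018920-171029761, plus strand) encodes FcγRIV, an activating receptor of intermediate affinity. Its main sites were 2 upstream elements. At -12.3 kb IRF8 scored 167.09 in control and 205.35 after IL-4, and C/EBPα scored 13.86 and 8.59. At -20.7 kb IRF8 scored 75.87 and 116.66, and C/EBPα 49.15 and 44.56. IRF8 was therefore 1.23-fold and 1.54-fold higher at these elements, while C/EBPα was 1.61-fold lower at the first and moved by less than 15% at the second (0.907-fold). The element at -20.7 kb lies between Fcgr4 and Fcgr2b, 22163 bp from the Fcgr2b start, so its assignment to Fcgr4 rests on a small difference in distance. Over the gene, 4 of 6 C/EBPα pairs were lower, none was higher, and the median was 0.743-fold. Over all pairs of the lists, 36.4% of those of C/EBPα were higher and 36.8% lower, and 42.6% of those of IRF8 were higher. IRF8 had 3 of 5 pairs higher, with the promoter peak falling from 10.51 to 6.39. Among those higher, the pair at +19.5 kb set a control peak of 4.29 against an IL-4 peak of 11.97. That IL-4 peak also overlapped another control peak, of 5.19. C/EBPα had a weaker control peak at -1.1 kb that scored 18.23. After IL-4 it overlapped 2 narrower peaks, 8.07 at -1306 bp and 12.78 at -944 bp, the latter annotated to the promoter. The pair counted above used the latter only. JUNB had 1 peak, in intron 2 after IL-4 (6.51), over an AP-1 site.

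Fcgr2b (chr1:170958617-170976547, minus strand), the inhibitory receptor, had the most peaks, and 9 of its 14 pairs over C/EBPα and IRF8 were higher after IL-4. Regions with pairs of both factors count for each, so the 14 pairs are not separate sites. Over all pairs of the lists, 36.4% of those of C/EBPα and 42.6% of those of IRF8 were higher. C/EBPα had 7 pairs, of which 5 were higher, 1 lower and the median 1.47-fold. The score at -11.0 kb went from 8.59 to 36.97, which is 4.3-fold, the largest rise of any pair at the 8 genes. At +3.0 kb it went from 4.41 to 14.09. At +16.1 kb, by the 3′ end of the gene, it went from 18.19 to 39.07. The 2 strongest C/EBPα peaks rose less in fold, from 53.74 to 79.25 at +8.3 kb and from 53.13 to 74.88 at +22.7 kb. The weak peaks at +13.6 kb (7.49 and 5.44) and -1.2 kb (8.31 and 7.43) did not rise. The sum of the 7 C/EBPα scores was 153.86 in control and 257.13 after IL-4.

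IRF8 was higher at part of Fcgr2b. Of the 4 regions with pairs of both factors, it was higher together with C/EBPα at 2, lower at 1 and in between at 1. Its promoter peak scored 29.97 in control and 54.61 after IL-4, and the peak at -12.8 kb scored 23.33 and 48.64. At +8.3 kb it went from 20.91 to 33.83, and at +3.0 kb from 8.89 to 20.77. At +16.1 kb it scored 28.81 and 31.27 (1.09-fold). It was lower at -16.7 kb (11.43 and 6.42), and also at +22.7 kb (23.52 and 19.27), where C/EBPα was higher. In all, 4 of 7 IRF8 pairs were higher and 2 lower, with a median of 1.62-fold. At -11.0 kb IRF8 had a peak only after IL-4, where C/EBPα rose most. JUNB had a control-only peak at +13.6 kb (6.51), which lies over an AP-1 site, and an IL-4-only peak at +16.1 kb (3.22).

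STAT sites were set beside the score changes after the values were seen. Of the 51 regions, 12 held a STAT site, and C/EBPα had a peak in both conditions at 8 of them. Its score was higher after IL-4 at 4, lower at 2 and in between at 2. Of all 25 C/EBPα pairs at the 8 genes, which include those of these regions, 8 were higher and 10 lower. Over all C/EBPα pairs of the lists, 36.4% were higher and 36.8% lower. A link between STAT sites and score changes was not tested. Among the regions with a STAT site, those higher were Fcgr2b -11.0 kb, +8.3 kb and +16.1 kb, and Syk +5.8 kb. Those lower were Fcgr4 -12.3 kb (0.62-fold) and Fcgr4 -7.1 kb (0.689-fold), and the promoter of Fcgr1 (1-fold) and Fcgr4 -2.0 kb (1.06-fold) lay in between. Of the other 4, Fcgr3 +8.4 kb had a control-only C/EBPα peak, Fcgr3 +5.9 kb an IL-4-only one, and Fcgr1 +9.4 kb and Fcgr3 +12.5 kb none. At Fcgr2b itself C/EBPα also rose at +3.0 kb and +22.7 kb, which held no STAT site. The 3 Fcgr2b regions held 2 STAT sites each, and no other region did. Their windows were centered on the C/EBPα IL-4 peak. Counted by peak, 3 of the 29 C/EBPα IL-4 peaks at the 8 genes held 2 or more STAT sites, against 1.65% of the whole list. Among C/EBPα control peaks 2 of 32 did, against 0.85%. The peaks at -11.0 kb are annotated to an endogenous retroviral repeat (MLTR14). Of the 131 peaks, 15 were annotated to a repeat.

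Fcgrt (chr7:45092990-45103851, minus strand), which encodes FcRn, had 3 peaks in all. C/EBPα had a control-only promoter peak of 7.18. IRF8 scored 3.57 in control and 10.19 after IL-4 at -3.3 kb, a 2.85-fold rise that began at the percentile 6.52 of the control list. By its highest score in control, Fcgrt stood above 17.3% of genes with a C/EBPα peak and 2.33% of genes with an IRF8 peak.

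Among the chains that carry the signal, Fcer1g (chr1:171229572-171234365, minus strand), the common γ chain, had 1 site for each of C/EBPα and IRF8. IRF8 scored 27.47 in control and 42.5 after IL-4 at the promoter, and C/EBPα scored 13.35 and 19.05 in intron 1, in a window with 2 C/EBP sites. These are rises of 1.55-fold and 1.43-fold. The 2 factors did not share a region there.

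Tyrobp (chr7:30413760-30417585, plus strand) moved the other way. Near its promoter, at -894 bp, C/EBPα scored 24.25 in control and 14.51 after IL-4, and IRF8 scored 14.8 and 8.47. At -19.2 kb C/EBPα scored 13.57 and 8.83, and IRF8 43.67 and 40.38. Of 4 pairs at this gene 3 were lower and none was higher. They are 2 pairs for each factor at the same regions and not 4 separate sites. Over all pairs of the lists, 36.8% of those of C/EBPα and 32.9% of those of IRF8 were lower. C/EBPα had a second, weak promoter peak in control at -468 bp (3.05), and IRF8 had an IL-4-only peak at -34 bp (6.41).

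Syk (chr13:52583173-52648792, plus strand), the kinase on which the activating chains converge, had intronic regions where the scores of the 2 factors changed differently. In the intron at +39.4 kb C/EBPα scored 114.96 in control and 113.51 after IL-4, its highest score at the 8 genes, whereas IRF8 scored 25.44 and 11.18. At +18.4 kb C/EBPα rose from 40.18 to 57.05 while IRF8 fell from 37.88 to 13.75. Both of these distances count from the downstream of the 2 starts. At the promoter of that start IRF8 scored 9.88 and 8.48, and C/EBPα had a control-only peak of 8.51. All 3 IRF8 pairs were lower, by 2.75-fold, 2.28-fold and 1.17-fold. Of the 4 C/EBPα pairs, 2 were higher and 1 lower. Over all pairs of the lists, 32.9% of those of IRF8 were lower. Of all C/EBPα pairs 36.4% were higher and 36.8% lower. A C/EBPα peak at +5.8 kb, which counts from the upstream start and so lies between the 2 starts, rose from 6.33 to 13.89. Syk also had 10 single-condition peaks, 5 of 12 in control and 5 of 12 after IL-4, with scores up to 8.51. Among those after IL-4 was an IRF8 peak of 5.12 at the promoter of the upstream start. Over the whole lists, 21.4% of the control peaks of either factor were control-only. The IL-4-only shares were 22% for C/EBPα and 30.4% for IRF8. Of the 12 Syk regions, 9 held none of the 4 kinds of site, that at +39.4 kb included.

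C/EBPα and IRF8 often shared a region. The 131 peaks merged into 51 regions. Both factors had a peak in 17 of the 41 regions bound in control (41.5%) and in 16 of the 46 bound after IL-4 (34.8%), against 29.9% and 28.7% of all regions. All 3 factors shared 2 regions in each condition. In 14 regions both factors had a peak in both conditions (27.5%, against 17.8% of all regions). These were 4 of Fcgr2b, 3 of Fcgr4, 2 each of Fcgr1, Tyrobp and Syk, and 1 of Fcgr3. At Fcgr2b +3.0 kb both factors rose, 3.2-fold for C/EBPα and 2.34-fold for IRF8. At Tyrobp -894 bp both fell, to 0.598-fold and 0.572-fold. At Fcgr4 -12.3 kb (0.62-fold and 1.23-fold) and Syk +18.4 kb (1.42-fold and 0.363-fold) they moved in opposite directions.

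**Figure D4:**
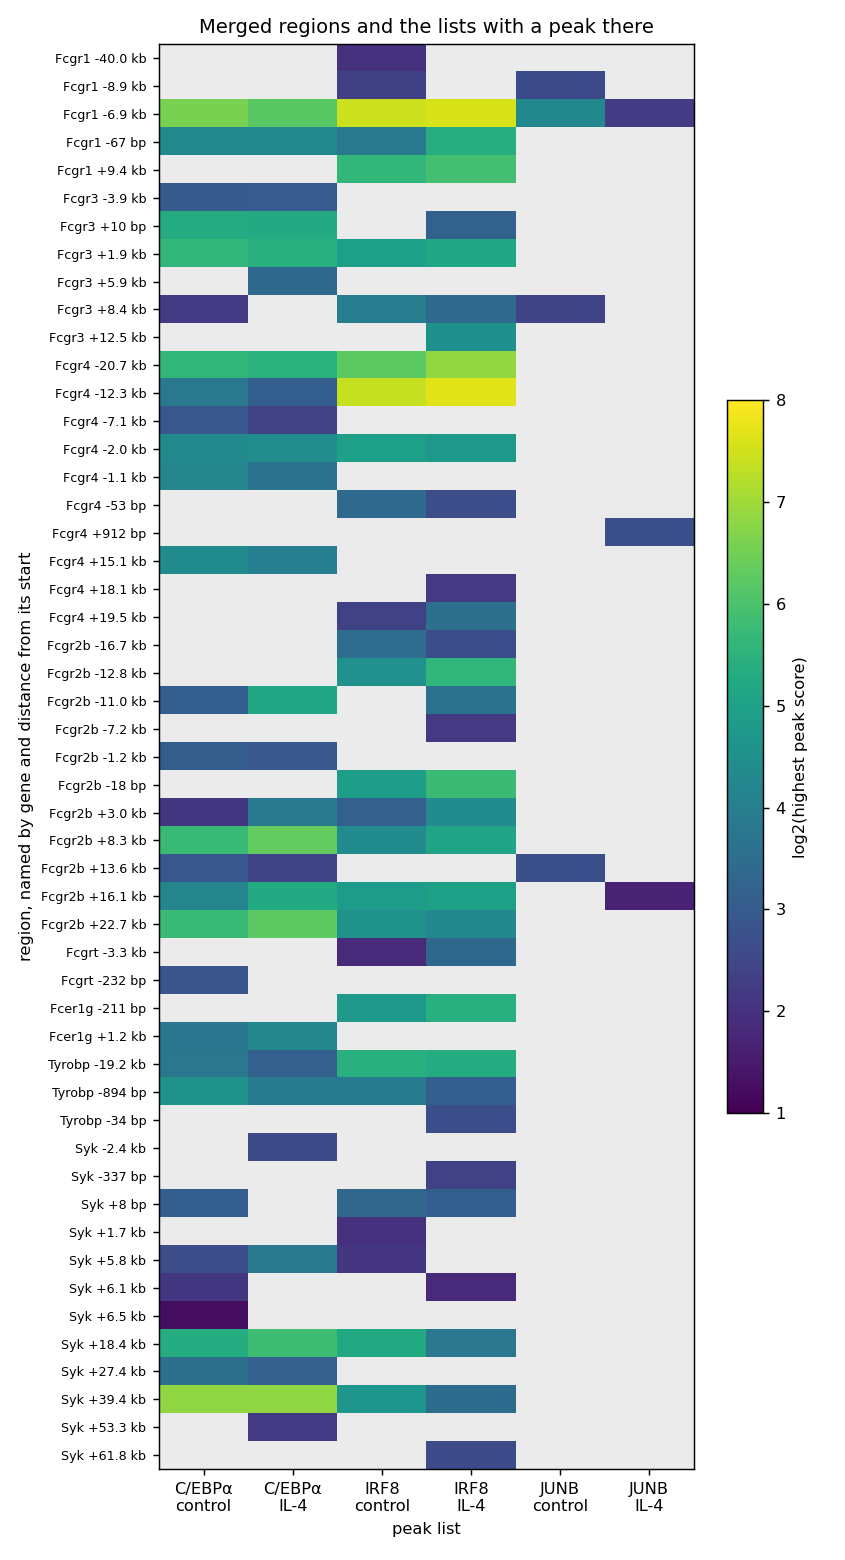
The 51 merged regions, grouped by gene and named by distance from the TSS, against the 6 peak lists. Color gives log2 of the highest score of the region in that list, and gray marks no peak. Fcgr1 -6.9 kb is the only row filled in all 6 columns, and the JUNB columns hold 4 and 3 peaks.

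In the median, the peaks lay closer to a TSS than the peaks of their lists. Median distances in control were 6665.5 bp for C/EBPα, 8389.5 bp for IRF8 and 8681.5 bp for JUNB. The whole control lists had 20235, 20951 and 26144 bp. After IL-4 the medians were 6971, 8258 and 6868 bp, against 19445, 19977 and 27046.5 bp. Of the 131, 27 were within 1000 bp of a TSS, 79 within 10000 bp and 7 beyond 30000 bp. Promoter peaks made up 18.8% of the C/EBPα peaks in control and 10.3% after IL-4, against 6.88% and 7.35% of the lists. For IRF8 the shares were 20% and 27.3%, against 7.25% and 9.16%. JUNB had no promoter peak, against 2.79% of its control list and 2.8% of its IL-4 list. In counts, C/EBPα had 6 and 3 promoter peaks and IRF8 6 and 9. The difference between conditions rested on weak peaks. Among peaks scoring at least 10, C/EBPα had 3 and 3 and IRF8 had 5 and 3, so the C/EBPα difference was gone and that of IRF8 turned round. The C/EBPα peak of Fcgr1 counted in control only, because the wider IL-4 peak was centered 173 bp inside the gene and annotated to intron 1. That of Fcgr4 at -1.1 kb counted after IL-4 only, through the IL-4 peak centered at -944 bp, while the other IL-4 peak there was annotated as intergenic.

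The shares of peaks with each kind of site were set beside those of the whole lists. A C/EBP site lay under 37.5% of C/EBPα control peaks at the 8 genes and 34.3% of the list. An IRF site lay under 16.7% of IRF8 control peaks, below the 23.2% of the list. A STAT site lay under 30% of IRF8 control peaks (9 of 30), against 12.7% of the list, and under 21.9% of C/EBPα control peaks (7 of 32), against 12.9%. AP-1 sites lay under 3 of the 4 JUNB control peaks, against 47.8% of the list. After IL-4 a C/EBP site lay under 34.5% of C/EBPα peaks, against 33.3%, and an IRF site under 15.2% of IRF8 peaks, against 21.9%. A STAT site then lay under 30.3% of IRF8 peaks, against 15.7%, and under 24.1% of C/EBPα peaks, against 17.6%. AP-1 sites lay under 1 of the 3 JUNB IL-4 peaks, against 43.1%. The C/EBPα and IRF8 counts share regions and are not independent.

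Genes of the same pathway were taken from a list of 32, made up of kinases, phosphatases and inhibitors, adaptors and effectors, and other Fc receptors. Of these, 29 had at least 1 peak. C/EBPα had 108 peaks in control and 124 after IL-4, with 19 control-only (17.6%) and 34 IL-4-only (27.4%), and 30 of 89 pairs were higher and 33 lower. IRF8 had 186 and 199 peaks, with 32 control-only (17.2%) and 46 IL-4-only (23.1%), and 69 of 151 pairs were higher and 46 lower. JUNB had 20 and 8 peaks, of which 15 were control-only (75%) and 3 IL-4-only (37.5%). Over the whole lists, control-only and IL-4-only shares were 21.4% and 22% for C/EBPα and 21.4% and 30.4% for IRF8. For JUNB they were 64.2% and 39.2%. Among the 7 kinases, 13 of 28 C/EBPα pairs were higher and 8 lower, and 27 of 49 IRF8 pairs were higher and 12 lower. The 5 phosphatases and inhibitors had 4 of 14 C/EBPα pairs higher and 5 lower, and 8 of 23 IRF8 pairs higher and 9 lower. The 10 adaptors and effectors had 11 of 38 C/EBPα pairs higher and 17 lower, and 24 of 63 IRF8 pairs higher and 21 lower. The 10 other Fc receptors had 2 of 9 C/EBPα pairs higher and 3 lower, and 10 of 16 IRF8 pairs higher and 4 lower. Beside these stand the shares of all pairs, 36.4% higher and 36.8% lower for C/EBPα and 42.6% and 32.9% for IRF8. The genes named next were chosen after their values were seen. Much of the kinase count came from 2 genes. Pik3r1, a regulatory subunit of PI3-kinase, had 6 of 10 C/EBPα pairs and 10 of 19 IRF8 pairs higher. Fyn, a Src-family kinase, had 4 of 5 C/EBPα pairs and 8 of 9 IRF8 pairs higher, with a top C/EBPα score of 15.2 in control and 37.74 after IL-4. Inpp5d, which encodes the phosphatase SHIP1 that acts downstream of the inhibitory receptor, had 1 of 4 C/EBPα pairs higher and 1 lower, and 1 of 8 IRF8 pairs higher and 4 lower. Its top scores were 30.37 and 32.71 for C/EBPα and 48.25 and 46.96 for IRF8. Grb2, an adaptor, had all 3 IRF8 pairs higher, with a top score of 150.39 in control and 187.59 after IL-4. Fcer1a, Fcer2a and Fcamr, which encode receptors for IgE or for IgA and IgM, had no peak in any list.

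Profiles most like those of the members were sought among 14930 genes by the highest score in each of the 6 lists, as the Euclidean distance of log2(1 + score). The nearest gene was Hcls1 for Tyrobp (distance 0.146), Zc3hav1 for Fcer1g (0.256), Mmp8 for Syk (0.273), Vav1 for Fcgr3 (0.399), Ctgf for Fcgr4 (0.426), Tfeb for Fcgr1 (0.635) and Cdc42ep4 for Fcgr2b (0.683). Of these only Vav1 was in the pathway list. Fcgrt had a peak in too few lists to be compared.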

How the data were processed

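Peak lists were used as deposited. According to the study's methods and the submitters' processing notes, the authors aligned reads with BWA 0.7.10 to mm10, called peaks per sample with MACS2 2.0.10 at a q-value limit of 0.01, removed blacklisted regions and annotated peaks with HOMER 4.2. The score in the deposited lists comes without a unit. The deposited distance to TSS is in bp. The control library and the read depth are not given in the sources used here. All 131 deposited distances matched a GENCODE or RefSeq start on GRCm38, and 0 peaks ended past a chromosome.

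An overlap of 1 bp or more made peaks shared, and scores were compared over 1-to-1 pairs, largest overlap first. Regions are merged overlapping peaks. Motifs were searched in 200 bp around peak centers. Named were all 8 genes, each gene's highest peak, every promoter peak and every single-condition peak with a score of at least 10, and for genes with a peak in at least 4 lists the genes with the smallest distance. The genes, lists and rules were chosen with earlier results of these data known. No test was run, as each group has 1 sample. Python 3.11.15, pandas 2.3.3 and blastn 2.17.0 were used, and scripts passed 13 of 13 checks on simulated data. Alternatives changed the score limit, the distance, the membership rule, list length, overlap, merging and score scaling.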

Additional observations from a re-analysis of the deposited data

How the results depend on the processing

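With only peaks scoring at least 5, C/EBPα and IRF8 each had 2 control-only peaks. With a score of at least 10, C/EBPα peaks numbered 18 in control and 19 after IL-4, control-only peaks 3 for either factor, IRF8 IL-4-only peaks 5, and promoter peaks 3 and 3 for C/EBPα and 5 and 3 for IRF8 in control and IL-4. The median log2 ratio of IRF8 was then 0.21, and 0.27 with scores divided by the list median, both past 15%. With every peak within 50000 bp of a member's start counted, whatever gene was named, IRF8 peaks numbered 59 and 60 in control and IL-4, IRF8 control-only and IL-4-only peaks 14 and 17, C/EBPα IL-4-only peaks 5, and promoter peaks 13 and 17 for IRF8 in control and IL-4 and 6 for C/EBPα after IL-4. These settings keep fewer or add neighboring peaks by construction. In rank matching, where the longer list of a factor is shortened by score, 1 JUNB peak was left in control and 0 were control-only. No median score ratio of C/EBPα or IRF8 at a gene with at least 2 pairs turned from past 15% higher to past 15% lower, or back, under any alternative run. The other 75 recomputed values of C/EBPα, IRF8 and their shared regions were counted as unchanged, within 1.5 times or on the same side of 15%. Some of them could not have changed. The limit set on distance to the TSS lay beyond the farthest peak, at 61812 bp, so it removed no peak. Where the score change was taken as a difference in percentile, the value was not a ratio and had no side of 15%. The values of these settings therefore do not show that the results are stable. No paired analysis was possible because the groups compared share fewer than 2 replicate numbers. With 1 sample a group and unknown depth, no difference above has an error.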
